A study of Homo sapiens with 3 samples.

Results

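Alpha and beta tubulins are the building blocks of microtubules, and 10 of the 44591 genes in the table were examined here, 4 alpha tubulins (TUBA1A, TUBA1B, TUBA1C and TUBA4A) and 6 beta tubulins (TUBB, TUBB2A, TUBB2B, TUBB3, TUBB4B and TUBB6). They were taken by gene name, and the family was picked because its ratios in these same libraries were already known to be high, so the rises given here are descriptions without a test. The study sequenced RNA from Caki-1, an established human renal cell carcinoma line with wild-type p53, to see what depletion of RBCK1 changes. RBCK1, also called HOIL-1, is an E3 ubiquitin ligase of the RBR type. Cells were transfected with a non-targeting siRNA (si-Control) or with 1 of 2 RBCK1 siRNAs, called si-RBCK1 #1 and si-RBCK1 #2 (si-HOIL-1 in the labels), and RNA was taken 48 h later. The general transfection method of the study gives 10 nmol/L siRNA. All 3 libraries came from the same line, each after an siRNA transfection. Each condition had 1 library, so there is no spread between replicates, no test was possible, and the intervals given below cover counting error only.

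Microtubules are polymers of alpha-beta tubulin heterodimers, and they carry the mitotic spindle, intracellular transport and, in most kidney epithelia, a primary cilium. Human cells hold several genes, called isotypes, for each subunit. The proteins are nearly alike in their bodies and differ most in an acidic C-terminal tail, where enzymes add glutamate chains. Cells also adjust tubulin mRNA to the pool of free dimers, a process called autoregulation, in which TTC5 recognises the first 4 residues of a tubulin as it leaves the ribosome and the mRNA is then degraded.

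The sequences read by that system are shown because they define which transcripts it could reach. Each line gives the first 30 coding bases from the GENCODE release 29 transcripts, 5′ to 3′, with the first 4 codons in capitals.
TUBA1B: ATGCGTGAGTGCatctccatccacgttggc
TUBA4A: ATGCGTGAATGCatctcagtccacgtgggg
TUBB: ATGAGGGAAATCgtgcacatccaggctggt
TUBB2A: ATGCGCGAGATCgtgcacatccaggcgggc
TUBB3: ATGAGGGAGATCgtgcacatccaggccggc
TUBB4B: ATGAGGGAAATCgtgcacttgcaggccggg
The codons spelled 1 start for the alpha members and 1 start for the beta members, although the bases differed between isotypes. Of 19474 genes with a coding sequence, 19 began with either start, 9 with the alpha start and 10 with the beta start. All 19 carried tubulin names, and 10 of them were the genes described here. The other 9 were TUBA3C, TUBA3D, TUBA3E, TUBA8, TUBAL3, TUBB1, TUBB4A, TUBB8 and TUBB8P12, and none of those exceeded 1.02 RPKM in a library. RPKM is a read count scaled by gene length and by library size, so levels of different genes can be set side by side. In the alpha members the start codon stood alone, with 3 coding bases in its exon, whereas the first coding exon of the beta members held 57.

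Most beta isotypes differ most at their other end. The last 60 coding bases before the stop codon (20 codons) are shown for every beta member but TUBB2B. The glutamate codons, GAA and GAG, are in capitals. Positions are on GRCh38.
TUBB: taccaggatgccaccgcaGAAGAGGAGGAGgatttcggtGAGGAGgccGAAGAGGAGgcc
TUBB2A: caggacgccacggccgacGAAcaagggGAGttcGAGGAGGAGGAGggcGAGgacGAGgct
TUBB3: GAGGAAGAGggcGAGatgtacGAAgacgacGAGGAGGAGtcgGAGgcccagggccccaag
TUBB4B: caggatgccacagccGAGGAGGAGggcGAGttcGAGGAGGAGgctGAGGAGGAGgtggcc
TUBB6: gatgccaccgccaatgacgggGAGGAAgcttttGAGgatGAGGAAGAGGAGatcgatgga
The end of TUBB lies at chr6:30724335-30724394 and that of TUBB2A at chr6:3153866-3153925. The end of TUBB3 lies at chr16:89935742-89935801, that of TUBB4B at chr9:137243494-137243553 and that of TUBB6 at chr18:12326068-12326127. TUBB2A is on the minus strand and the others shown are on the plus strand. The glutamate codons numbered 10 in TUBB4B, 9 in TUBB and TUBB3, 8 in TUBB2A and 7 in TUBB6. The end of TUBB2B differs from that of TUBB2A only in its last base and also holds 8.

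The siRNAs lowered their target. RBCK1 stood at 33.3 RPKM in si-Control, 9.97 with si-RBCK1 #1 and 12.3 with si-RBCK1 #2, or 29.9% and 36.8% of si-Control. The RPKM scaling implied 36926834, 40442939 and 36344428 reads in the same order. The line carried its defining renal markers unevenly. PAX8, MET, KRT8 and KRT18 were present, from 65.6 to 238 RPKM over the libraries, while PAX2, CA9, EPCAM and LRP2 stayed at or below 0.561 RPKM. The 7 leukocyte and endothelial markers stayed at or below 0.315 RPKM.

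Among the alpha tubulins, TUBA1B and TUBA1C, both broadly expressed, made up most of the message. TUBA1B (chr12:49521565-49525304, minus strand, here and for the other genes of the table on hg19) stood at 124 RPKM in si-Control, 303 with si-RBCK1 #1 and 310 with si-RBCK1 #2, from 8032, 21486 and 19723 recovered reads. Its level was 2.44-fold and 2.49-fold that of si-Control. TUBA1C (chr12:49621709-49667121, plus strand) stood at 164, 277 and 250 RPKM. It was the most abundant alpha tubulin in si-Control and, at 1.69-fold and 1.53-fold, had the smallest rise of the 9 members that passed the filter on low values (a mean of at least 1 RPKM). In si-Control TUBA1C lay above TUBA1B, and in both si-RBCK1 libraries TUBA1B lay above TUBA1C, with counting intervals that did not overlap in any library.

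TUBA1A, known as the main alpha tubulin of developing neurons, and TUBA4A, known from muscle, platelets and mature neurons, were the lesser alpha isotypes. TUBA1A (chr12:49578578-49583107, minus strand) stood at 29.4 RPKM in si-Control, 54.6 with si-RBCK1 #1 and 62.8 with si-RBCK1 #2. It was 1.86-fold and 2.14-fold higher. TUBA4A (chr2:220114433-220119330, minus strand) stood at 19.0, 53.3 and 49.6 RPKM. At 2.81-fold and 2.61-fold it had the largest relative rise of the alpha tubulins with each siRNA. With si-RBCK1 #1 its counting interval, 51.9 to 54.7 RPKM, overlapped that of TUBA1A, 53.2 to 56.1 RPKM, so the order of these neighbours could not be told at this depth, whereas in the other 2 libraries TUBA1A was the higher.

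Among the beta tubulins, TUBB, the class I isotype found in nearly every cell, and TUBB4B, the class IVb isotype also known from cilia, were the abundant pair. TUBB (chr6:30687978-30693203, plus strand) stood at 203 RPKM in si-Control, 451 with si-RBCK1 #1 and 377 with si-RBCK1 #2. It was 2.22-fold and 1.86-fold higher, the smallest rise among the 5 beta tubulins that passed. TUBB4B (chr9:140135711-140138159, plus strand) stood at 140, 440 and 456 RPKM and was 3.13-fold and 3.25-fold higher. TUBB led TUBB4B in si-Control and, narrowly, with si-RBCK1 #1 (counting intervals of 447 to 454 and 434 to 445 RPKM), and TUBB4B led with si-RBCK1 #2. On recovered reads, which are not per length, TUBB led in all 3 libraries, with 68.0% of beta reads against 24.0% for TUBB4B in si-Control, 59.1% against 29.4% with si-RBCK1 #1 and 54.3% against 33.6% with si-RBCK1 #2. TUBB4B gained 299 and 316 RPKM, the largest absolute rise of any member with each siRNA.

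TUBB6, the class V isotype, was an intermediate beta tubulin. It (chr18:12307668-12329825, plus strand) stood at 33.6 RPKM in si-Control, 109 with si-RBCK1 #1 and 107 with si-RBCK1 #2. Both si-RBCK1 libraries were more than 3 times the control, at 3.26-fold and 3.18-fold, and the siRNAs differed by less than the counting error.

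The lowest beta tubulins split. TUBB3, the class III isotype, is best known as a neuronal marker and is also found in carcinomas. It (chr16:89988417-90002505, plus strand) stood at 3.97 RPKM in si-Control, 27.3 with si-RBCK1 #1 and 26.6 with si-RBCK1 #2, from 294, 2213 and 1941 reads. At 6.87-fold and 6.71-fold it had the largest relative rise of the tubulins with each siRNA. Ranked by the smaller of its log2 ratios, TUBB3 was number 3 of 12403 genes that passed the filter. In si-Control it ranked 8317 by level among protein-coding genes, and in the si-RBCK1 libraries it ranked 2472 and 2526. The 11 other neuronal genes examined (MAP2, DCX, RBFOX3, STMN2, ELAVL3, ELAVL4, NEFL, NEFM, INA, SYP and GAP43) all stayed below 1 RPKM, with 2 of them, STMN2 and ELAVL3, at 0 in every library. Their summed level was 0.972 RPKM in si-Control, 2.12 with si-RBCK1 #1 and 1.85 with si-RBCK1 #2. On the few reads they had, in the same order, NEFL (9, 87 and 42), INA (5, 46 and 19) and GAP43 (18, 59 and 58) were higher with both siRNAs. MAP2 (136, 37 and 64) was lower with both, and the counting intervals of the ratios of the other neuronal genes held 0. In RNA from whole cultures, a change in the number of cells of a type and a change in RNA per cell cannot be told apart.

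TUBB2A and TUBB2B are class II isotypes of the same region of chromosome 6, with coding sequences 98.1% identical, and they did not move alike. TUBB2A (chr6:3153900-3157783, minus strand) stood at 4.87 RPKM in si-Control, 19.1 with si-RBCK1 #1 and 17.0 with si-RBCK1 #2. It was 3.92-fold and 3.49-fold higher. TUBB2B (chr6:3224495-3227968, minus strand) stood at 0.858, 0.906 and 0.968 RPKM, from 64, 74 and 71 reads. These 3 libraries overlapped within counting error, and the interval of the TUBB2B ratio with si-RBCK1 #1 ran from -0.42 to 0.58 on the log2 scale, below the ratio of every other member. With si-RBCK1 #2 it ran from -0.34 to 0.68 and held the ratio of TUBA1C, 0.61, and that of no other member. TUBB2B, with a mean of 0.911 RPKM, was the only member to miss the filter, and the next member above the limit was TUBB2A with a mean of 13.6 RPKM. In si-Control the intervals of TUBB2A (4.34 to 5.43 RPKM) and TUBB3 (3.53 to 4.45 RPKM) overlapped, and in both si-RBCK1 libraries TUBB3 lay above TUBB2A.

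**Figure D1:**
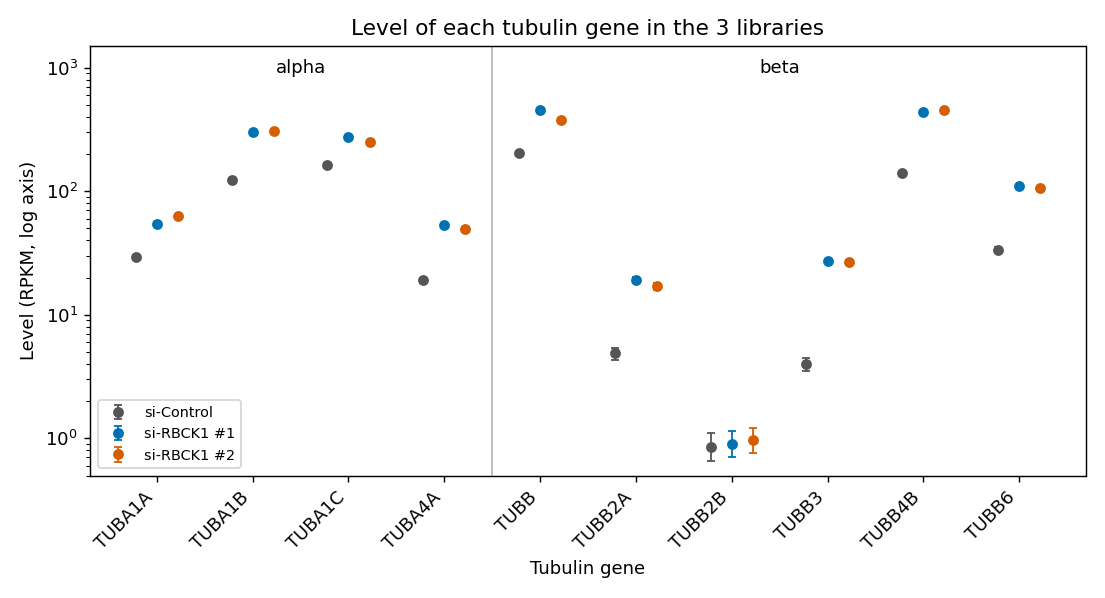
Level of each of the 10 tubulin genes in RPKM on a log axis, in si-Control (grey), si-RBCK1 #1 (blue) and si-RBCK1 #2 (orange), 1 library each. Bars are 95% counting intervals on recovered reads. For 9 genes both si-RBCK1 points lie above si-Control, and for TUBB2B the 3 points lie between 0.858 and 0.968 RPKM.

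On the scale used across all genes, log2(RPKM + 1) in each si-RBCK1 library minus si-Control, a value of 1 is a 2-fold rise and the rises of low genes are understated. With si-RBCK1 #1, 7 of the 9 members that passed were at least 2-fold higher, beside 2.91% of all genes tested. With si-RBCK1 #2 the count was also 7, beside 2.50%, and 6 members (TUBA1B, TUBA4A, TUBB2A, TUBB3, TUBB4B and TUBB6) were at least 2-fold higher with both, beside 1.46%. The family was chosen on this contrast, so nothing is read from these counts. The members nearest the limit were TUBB (1.15 and 0.89) and TUBA1A (0.87 and 1.07), each above it with 1 siRNA only. The 2 siRNA comparisons share the si-Control library, so they are not independent of each other.

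The beta tubulins had the larger log2 ratios. The alpha members ran from 0.75 (TUBA1C) to 1.44 (TUBA4A) with si-RBCK1 #1, with a median of 1.08, and from 0.61 to 1.34 with si-RBCK1 #2, with a median of 1.19. The 5 beta members that passed ran from 1.15 (TUBB) to 2.51 (TUBB3) with si-RBCK1 #1, with a median of 1.67, and from 0.89 to 2.47 with si-RBCK1 #2, with a median of 1.64. The median of all 12403 genes tested was 0.02 and 0.03. The families overlapped, since TUBB lay below TUBA1B and TUBA4A with each siRNA.

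**Figure D2:**
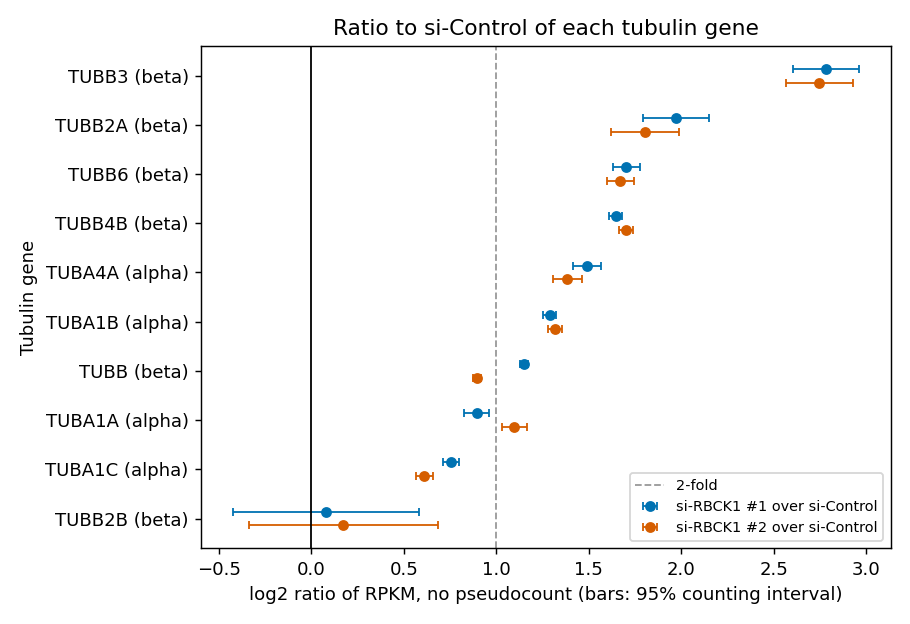
Log2 ratio of RPKM over si-Control for each tubulin gene, without a pseudocount, for si-RBCK1 #1 (blue) and si-RBCK1 #2 (orange), ordered by si-RBCK1 #1. Bars are 95% counting intervals, the dashed line marks 2-fold, and only TUBB2B has intervals that hold 0.

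The siRNAs gave similar but not identical values. The difference of si-RBCK1 #2 minus si-RBCK1 #1 was largest for TUBB, at -0.26, with a counting interval of -0.27 to -0.24 on reads. TUBA1A differed the other way, at 0.20 (0.15 to 0.26). TUBB, TUBA1C, TUBA4A and TUBB2A had intervals below 0, TUBA1A, TUBA1B and TUBB4B had intervals above 0, and those of TUBB2B, TUBB3 and TUBB6 held 0. The median size of the difference was 0.10 over the 9 members that passed and 0.17 over all genes tested. Counting error is the smallest error such libraries can have, so these intervals do not show that the siRNAs differ beyond the spread of repeated transfections.

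Added up, the tubulins more than doubled. The 4 alpha tubulins summed to 336 RPKM in si-Control, 688 with si-RBCK1 #1 and 672 with si-RBCK1 #2. The 6 beta tubulins summed to 387, 1047 and 985 RPKM. The alpha sum was 2.05-fold and 2.00-fold higher, and the beta sum 2.71-fold and 2.55-fold higher. Together the 10 genes took 0.184% of the summed RPKM of protein-coding genes in si-Control, 0.426% with si-RBCK1 #1 and 0.414% with si-RBCK1 #2. The ratio of alpha to beta level was 0.870 in si-Control (counting interval 0.854 to 0.885), 0.657 with si-RBCK1 #1 (0.649 to 0.664) and 0.682 with si-RBCK1 #2 (0.674 to 0.690). It was lower in both si-RBCK1 libraries than in si-Control.

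On RPKM, which is per length, the make-up of each family shifted away from the isotype that led in si-Control. TUBA1C made up 48.7% of alpha message in si-Control, 40.2% with si-RBCK1 #1 and 37.2% with si-RBCK1 #2. TUBA1B made up 36.9%, 44.1% and 46.1%, and accounted for 50.9% and 55.2% of the rise of the alpha sum. TUBA1A held 8.74%, 7.94% and 9.35%, and TUBA4A held 5.65%, 7.76% and 7.38%. On RPKM the lead of the alpha family thus passed from TUBA1C to TUBA1B with each siRNA. On recovered reads, which are not per length and are lower limits, TUBA1B held 42.4% in si-Control and 48.4% and 49.7% with the siRNAs. The recovered reads of TUBA1C rest on a length of 1059 nt, below its coding sequence of 1350 nt with the stop codon. They are thus a fraction of its true reads, so these shares are too high. Which alpha isotype led on reads cannot be told. The share of TUBA1B was higher with both siRNAs on either scale.

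In the beta family TUBB made up 52.5% of the message in si-Control (counting interval 51.9% to 53.0%), 43.0% with si-RBCK1 #1 (42.7% to 43.4%) and 38.3% with si-RBCK1 #2 (38.0% to 38.6%). TUBB4B made up 36.3%, 42.0% and 46.3%, and accounted for 45.3% and 52.8% of the rise of the beta sum. TUBB6 rose from 8.70% to 10.5% and 10.9%. TUBB3 remained a small part at 1.03%, 2.61% and 2.70%, and TUBB2A at 1.26%, 1.82% and 1.72%. The isotype with the largest fold, TUBB3, thus gave 3.53% and 3.78% of the rise of the beta sum.

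**Figure D3:**
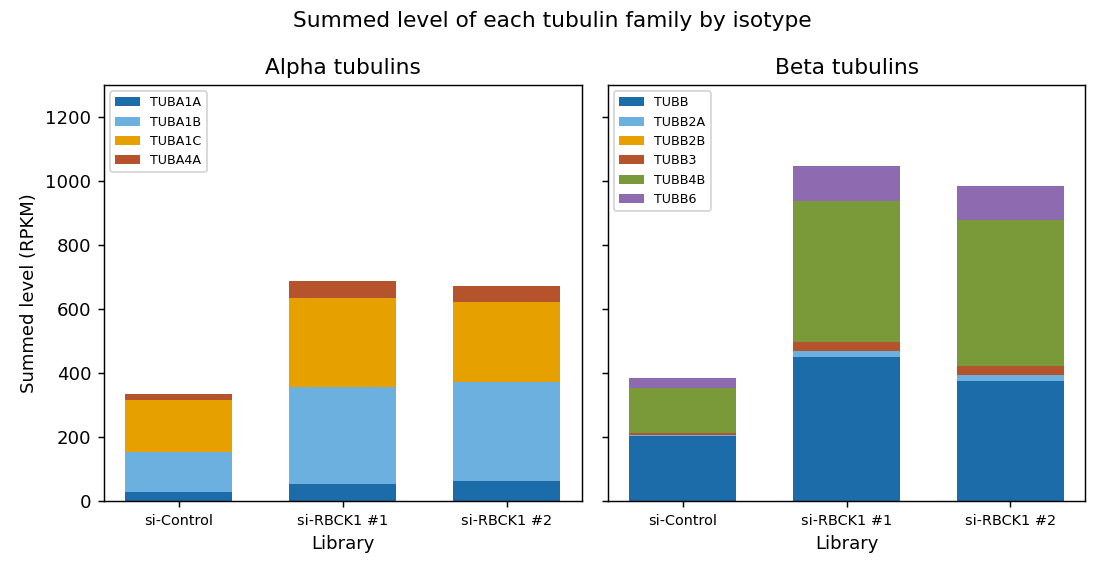
Summed level in RPKM of the alpha (left) and beta (right) tubulins in each library, stacked by isotype. The alpha sum goes from 336 RPKM in si-Control to 688 and 672, and the beta sum from 387 to 1047 and 985, with TUBA1B and TUBB4B adding the largest blocks.

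Because the isotypes are so alike, reads can be assigned to the wrong gene, and how the counting treated reads that match several genes is not given in the sources used here. Within the alpha family, coding sequences were 84.4% to 97.2% identical, within the beta family 80.9% to 98.1%, and between the families 52.2% to 53.9%. The share of 50-base stretches of a transcript found unchanged in another tubulin gene or pseudogene was 65.5% for TUBB2A, 62.7% for TUBA1B, 52.2% for TUBB2B, 41.1% for TUBA1A, 25.1% for TUBA1C and 18.2% for TUBB. It was 9.89% for TUBB4B, 8.90% for TUBB3, 5.25% for TUBA4A and 0.99% for TUBB6. These last 4 members, with few shared stretches, had log2 ratios from 1.34 to 2.51. By this measure TUBB2A, TUBB2B, TUBA1A and TUBA1B are the most open to misassigned reads. How far that changed their values was not measured.

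The remaining protein-coding alpha and beta tubulins were nearly silent. The 8 other protein-coding alpha and beta tubulins of the table (TUBA3C, TUBA3D, TUBA3E, TUBA8, TUBAL3, TUBB1, TUBB4A and TUBB8) summed to 2.16 RPKM in si-Control, 2.85 with si-RBCK1 #1 and 2.20 with si-RBCK1 #2, and none passed the filter. TUBB4A was the highest of them at 0.706, 1.02 and 0.960 RPKM. The 3 noncoding tubulin genes (TUBA3FP, TUBA4B and TUBBP5) stayed at or below 0.378 RPKM. Of 21 tubulin pseudogenes, 6 were listed at 0 in every library and 1 passed the filter, TUBBP2, at 2.41, 5.35 and 5.35 RPKM. It was higher in both si-RBCK1 libraries, and whether its reads came from TUBB or another tubulin was not tested.

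Genes beside the tubulins in the genome were not 2-fold higher where they could be measured. TUBA1A, TUBA1B and TUBA1C form a cluster on chromosome 12. The nearest rows on either side of the 10 members gave 17 different genes, of which 5 passed the filter (LMBR1L, STK16, PSMG4, DEF8 and AFG3L2). Their log2 ratios ran from -0.58 to 0.45 with si-RBCK1 #1 and from -0.36 to 0.03 with si-RBCK1 #2, with 2 higher and 2 lower with both siRNAs. The other 12 neighbours, most of them antisense or long noncoding RNAs, had no value above 1.03 RPKM. Gene models on the opposite strand overlapped 7 members in 9 places, and of these only STK16 at TUBA4A and AFG3L2 at TUBB6 passed the filter. AFG3L2, a subunit of a mitochondrial protease, stood at 54.4, 53.3 and 50.6 RPKM while TUBB6 was more than 3 times higher. Whether the counting used strand is not given in the sources used here.

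The promoters differed in their motifs. In the RefSeq promoter windows (GRCh38.p14), which held all 10 members, the letters TATA stood on the strand of the gene between 50 and 21 bases before the start of transcription in 6 members (TUBA1A, TUBA1C, TUBA4A, TUBB2A, TUBB3 and TUBB4B), and in 8.6% of 27305 genes. CCAAT was found on either strand within 250 bases before the start in 7 members and 37.0% of genes, GGGCGG in 8 members and 46.2%, and CACGTG in 2 members, TUBA1C and TUBB, and 7.7%. The 100 bases before the start are shown for TUBB3 and TUBA1C, which had the largest and smallest rise of the 9 members that passed the filter, and for TUBB4B, with TATA in capitals.
TUBB3: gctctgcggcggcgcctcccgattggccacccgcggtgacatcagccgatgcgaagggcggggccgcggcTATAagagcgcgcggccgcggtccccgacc
TUBB4B: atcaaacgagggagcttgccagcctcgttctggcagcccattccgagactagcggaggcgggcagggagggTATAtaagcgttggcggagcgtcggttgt
TUBA1C: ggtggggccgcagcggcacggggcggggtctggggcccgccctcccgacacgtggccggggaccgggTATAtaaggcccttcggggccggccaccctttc
They lie at chr16:89923242-89923341 (plus strand), chr9:137241187-137241286 (plus strand) and chr12:49264982-49265081 (plus strand). Of the 4 members without TATA in that window, TUBB6, TUBB and TUBA1B were higher in both si-RBCK1 libraries and TUBB2B stayed within counting error of si-Control. A match of letters is not a binding site.

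Most of the other genes of the microtubule system listed here lay near their si-Control level. For this and the other groups, ratios and the 2-fold limit are on log2(RPKM + 1), which understates the change of low genes. The gamma-tubulin complex, which nucleates microtubules, was counted with the delta and epsilon tubulins. All 14 of its genes passed, with medians of 0.07 and 0.17 for si-RBCK1 #1 and si-RBCK1 #2, and none was at least 2-fold higher. TUBGCP5, a ring subunit, was the highest at 0.89 and 0.79, followed, by the mean of both ratios, by TUBGCP4 at 0.75 and 0.54. TUBG1, the main gamma tubulin, stood at 39.5, 57.0 and 48.3 RPKM. TUBE1, the epsilon tubulin of centrioles, went the other way at 10.03, 3.30 and 3.87 RPKM, more than 2-fold lower on this scale (-1.36 and -1.18), and MZT1 stood at -0.61 and -0.66. TUBG2 (10.3, 9.25 and 11.9 RPKM) and TUBD1 (3.86, 4.34 and 4.68 RPKM) stayed near their control levels.

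Enzymes that modify tubulin had medians of 0.17 and 0.33 over the 13 of 23 in the table that passed. TPGS1, a subunit of the glutamylase complex, was the single one past 2-fold, at 1.43 RPKM in si-Control, 5.13 with si-RBCK1 #1 and 4.96 with si-RBCK1 #2 (1.33 and 1.29). By the mean of both ratios TTLL12 was next at 0.67 and 0.65. AGTPBP1, a deglutamylase, was lowest at -0.58 and -0.59, and TTLL1 stood at -0.27 and -0.33. Of 32 microtubule-associated proteins, 27 passed, with medians of -0.19 and -0.18 and none past 2-fold in either direction on log2(RPKM + 1). The highest by the mean of both ratios were MAP1A (0.90 and 0.36) and EML3 (0.58 and 0.71), and the lowest were CAMSAP2, which binds minus ends (-0.63 and -0.62), and CLASP2, which binds plus ends (-0.50 and -0.66). MAP1A is a low gene, at 0.864, 2.47 and 1.40 RPKM, and on reads its ratio with si-RBCK1 #1 lay above 2-fold (interval 1.33 to 1.70 on the log2 scale). The 34 motor genes listed held no mitotic kinesin, and 31 passed, with medians of -0.05 and 0.03 and none past 2-fold on log2(RPKM + 1). By the mean of both ratios the lowest motors were KIFAP3 (-0.72 and -0.77) and KIF5B, a kinesin heavy chain (-0.66 and -0.43), and the highest were DYNC1LI2 (0.39 and 0.39) and KIF1C (0.49 and 0.34).

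The folding cofactors of tubulin lay near their control level and its chaperonin somewhat above it. The 9 folding cofactors and regulators, TTC5 among them, had medians of 0.03 and 0.18 and none was past 2-fold. TBCD, which assembles the dimer, was highest at 0.69 and 0.73, and STMN1, which sequesters dimers, stood at 0.58 and 0.39. TBCEL (-0.74 and -0.58) and ARL2 (-0.33 and -0.02) were lowest by the mean of both ratios. TTC5, the autoregulation factor, stood at 4.76, 5.59 and 5.53 RPKM. The 8 subunits of the CCT chaperonin, which folds new tubulin and actin, had medians of 0.54 and 0.40. Of these, 8 were higher with si-RBCK1 #1 and 7 with si-RBCK1 #2, beside 6393 and 6641 of all 12403 genes tested. CCT3 stood at 1.12 and 0.74 and CCT6A at 0.68 and 0.72. By the mean of both ratios CCT4 (0.34 and 0.08) and CCT7 (0.14 and -0.06) were the lowest.

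Other filament proteins were the group nearest to the tubulins by their median ratio. Of 10 keratin, vimentin, lamin and actin genes, 9 passed, with medians of 0.79 and 0.99. With si-RBCK1 #1, 3 were at least 2-fold higher, beside 2.91% of all genes tested, and with si-RBCK1 #2, 4 were, beside 2.50%. The list was chosen with earlier results of these data known, so nothing is read from these counts. KRT8, a simple epithelial keratin, stood at 65.6, 172 and 238 RPKM (1.38 and 1.84), and LMNB1, a nuclear lamin, at 7.62, 17.4 and 23.9 RPKM (1.10 and 1.53). The cytoplasmic actin ACTG1 stood at 0.59 and 0.56, and KRT7 was lowest at -0.66 and -0.78.

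**Figure D4:**
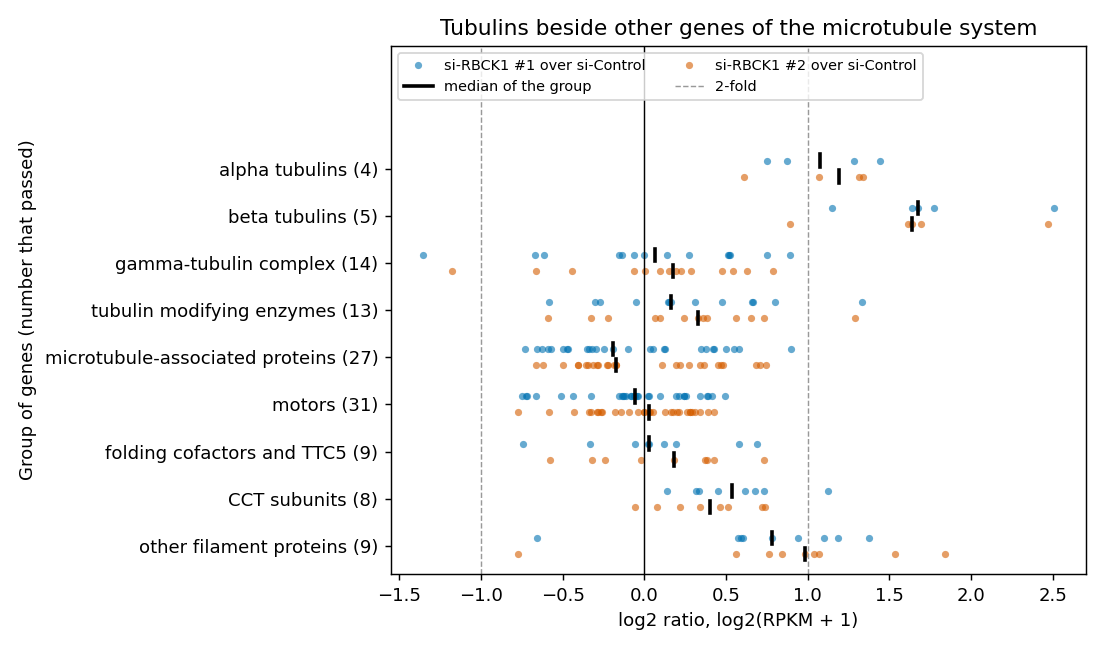
Log2 ratio over si-Control on log2(RPKM + 1) for genes that passed the filter, by group, for si-RBCK1 #1 (blue) and si-RBCK1 #2 (orange). Each point is a gene, black ticks are group medians, dashed lines mark 2-fold. The medians of the alpha (1.08 and 1.19) and beta tubulins (1.67 and 1.64) lie to the right of every other group shown. The tubulins were picked for their high ratios and the other groups with earlier results known, so this order is not a test.

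Outside the tubulins, the 5 protein-coding genes of at least 10 RPKM on average whose pair of log2 ratios lay nearest to the members' medians (1.44 and 1.34) were SDC1, LFNG, ID1, HARS and GMNN, over the same 3 libraries. SDC1, a cell surface proteoglycan, stood at 10.8 RPKM in si-Control, 31.9 with si-RBCK1 #1 and 28.97 with si-RBCK1 #2. ID1, an inhibitor of basic helix-loop-helix factors, stood at 23.9, 64.0 and 62.0 RPKM. The others ran from 1.44 to 1.49 with si-RBCK1 #1 and from 1.28 to 1.39 with si-RBCK1 #2.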

How the data were processed

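RNA from 3 Caki-1 cultures, 1 per condition, was sequenced. The labels describe rRNA removal and a directional paired-end library, and the submitters' processing notes name FastQC, Trimmomatic, TopHat2, HTSeq and hg19, with no role or order. The annotation is not given in the sources used here. The authors deposited 1 table of 44591 genes with RPKM per library. Its control, treated, log2 fold change, p-value and q-value columns hold the authors' own comparison and were not used.

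Here, log2 ratios were taken from the RPKM as deposited, after adding 1 RPKM to each value, over the 12403 genes that averaged 1 RPKM or more. Reads are the smallest whole numbers that, with a length of up to 50000 nt, give the 3 RPKM values of a gene within 0.002 of a read. They are lower limits if the true length is a multiple, as for TUBA1C, whose recovered length is shorter than its coding sequence. Exact Clopper-Pearson intervals (95%), or exact Poisson intervals for levels, cover counting error only. All 10 tubulin genes gave whole reads. Scripts were tested on simulated data. With 1 library per condition no p-value was computed.

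The tubulins and all gene lists were chosen with earlier results of these data known. Named genes are every tubulin of the table, RBCK1, genes sharing the tubulin start, genome neighbours, the 5 genes nearest in ratio, and the 2 highest and 2 lowest by mean log2 ratio in each list, with markers beside them. TTC5, TUBG1, TUBG2 and TUBD1 follow their roles in those lists. Coding sequences came from GENCODE release 29 and promoters from RefSeq, both on GRCh38, and no hg19 position was converted. The coding ends of the alpha tubulins are not reported here. One entry of the table was not a number and was left out. Python 3, numpy, pandas and scipy were used, and alternatives covered scaling, pseudocount, filter, limit and reads.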

Additional observations from a re-analysis of the deposited data

How the results depend on the processing

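No paired analysis was possible because no condition was repeated. Values moved by more than counting error, but every summed level and median kept its direction under all alternatives run. The median log2 ratio of the tubulins (1.44 and 1.34 for si-RBCK1 #1 and #2) became 1.28 and 1.19 with a pseudocount of 5 RPKM, 1.64 and 1.64 for the members without a neighbouring member, and 1.36 for si-RBCK1 #1 with no filter. At a limit of 4-fold 1 tubulin remained past it with each siRNA. Over all genes, the counts at least 2-fold higher (361 and 310) became 616 and 563 with a pseudocount of 0.1 RPKM, 114 and 101 with 5 RPKM, 1499 and 1400 at 1.5-fold, 24 and 17 at 4-fold, and 237 for si-RBCK1 #1 with a mean of at least 5 RPKM.

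The log2 ratio of the summed level with si-RBCK1 #1 (1.03 alpha, 1.44 beta, 1.26 both) became 0.98, 1.38 and 1.21 with equal totals. It became 0.86, 1.30 and 1.11 without the member of each family with the highest mean over the 3 libraries (TUBA1B, TUBB4B). That mean includes the si-RBCK1 libraries, so it favours members that rose. In si-Control TUBA1C and TUBB led, and leaving those out was not run. On recovered reads the log2 ratio of the sum was 1.10 for alpha and 1.35 for beta. With si-RBCK1 #2 (1.00, 1.35 and 1.20) it became 0.95, 1.30 and 1.15 with equal medians, and 0.97, 1.32 and 1.16 with equal totals. It was 1.09, 1.22 and 1.17 on recovered reads, and 0.77, 1.10 and 0.96 without TUBA1B and TUBB4B. The ratio of alpha to beta was 0.552, 0.462 and 0.504 on recovered reads in si-Control, si-RBCK1 #1 and si-RBCK1 #2. Reads, which are not per length, thus also gave the lower ratio with both siRNAs. These ratios are too low, because the recovered reads of TUBA1C are a fraction of its true reads. For the same reason the alpha and combined sums on reads give TUBA1C too little weight. The difference between the siRNAs for TUBA1B reversed to -0.011 with equal medians. Of the single ratios under alternatives 59 stayed within counting error and 21 moved, and of 30 isotype shares 27 differed between RPKM and reads. Such shares differ in part by construction, since reads are not divided by gene length, so that count does not measure how stable they are. On reads TUBB led the beta family in every library, so the change of lead seen there on RPKM was not present. Which alpha isotype led on reads cannot be told, because the recovered reads of TUBA1C are too low. With 1 library per condition, variation between cultures is unknown. Counting error was widest for TUBB2B, TUBB2A and TUBB3. The cause of these shifts was not tested.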
